A study of Homo sapiens with 3 samples.

Results

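The Mediator complex genes were taken as the genes whose symbol is MED followed by a number, with or without a final L, together with CDK8, CDK19 and CCNC. The array annotation paired 31 of them with at least 1 probe set of a single gene, out of 18239 genes on the array, and these 31 genes had 96 probe sets. MED6 and MED25 had no probe set of a single gene and were not analysed here. Each gene was represented by its brightest probe set, and 29 of the 31 genes, with 74 probe sets, reached the filter level of 4.88 on the log2 scale on at least 1 array. MED12 and MED12L did not.

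The samples were 3 cultures of A498, an established epithelial line from a human kidney carcinoma that lacks functional VHL, the tumour suppressor lost in most clear cell renal carcinomas. One culture received E. coli 83972, an asymptomatic bacteriuria strain, one received DRB at 60 µM, and the control received 0.08% DMSO. Total RNA was taken after 4 h in serum-free medium with gentamicin from all 3 and measured on 1 Affymetrix 3' array per culture. The labels state no DMSO for the treated cultures and disagree on the bacterial concentration, so none is given.

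Mediator is the large protein assembly that carries signals from enhancer-bound transcription factors to RNA polymerase II at promoters. Its core has a head that contacts the polymerase, a middle, a tail that binds many activators, and MED14 as the backbone that joins them. A separable kinase module, built on CDK8 or its paralog CDK19 with cyclin C, MED12 and MED13, binds the core reversibly and blocks its contact with the polymerase. DRB is a nucleoside analog that inhibits CDK9, the kinase of P-TEFb, and so holds polymerase near promoters. Short-lived messenger RNAs fall first when elongation is blocked.

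All values are log2 levels made by the authors with RMA, and all differences are on that log2 scale. There was 1 array per group, so no difference has a replicate check and no test was run. RMA brings arrays to nearly one distribution, which reduces a change shared by most transcripts. In these bulk samples fewer cells and less RNA per cell cannot be told apart. As a yardstick of technical error only, the disagreement between the 2 brightest probe sets of 6317 genes gave a standard deviation of a difference of 0.32 for DRB minus control, 0.18 for E. coli 83972 minus control and 0.35 for E. coli 83972 minus DRB. A gene was counted as lower or higher when its difference was at least 2-fold, that is 1 on the log2 scale.

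Genes known to respond to each agent were read first as a check of the labels. HEXIM1, an inhibitor of P-TEFb with a short-lived message, read 8.48 with E. coli 83972, 6.93 with DRB and 9.61 in control. MDM2, the p53 inhibitor, read 8.06 with E. coli 83972, 6.27 with DRB and 8.64 in control. MYC, whose message is also short-lived, was not lower with DRB, at 9.55 with DRB against 9.56 in control, and read 10.80 with E. coli 83972. CXCL8, the neutrophil chemokine, read 13.14 with E. coli 83972, 7.55 with DRB and 8.07 in control. All 8 genes of the kidney epithelial and renal carcinoma marker list that had a probe set reached the filter level. The highest was VIM, at 12.85, and the lowest was LRP2, which reached it with DRB alone, at 4.90. Of the other markers, 1 of 4 leukocyte, 2 of 5 endothelial and 1 of 5 fibroblast genes reached it, at no more than 5.60. None of these markers differed 2-fold with DRB or with E. coli 83972. The difference between 3' and 5' probe sets of ACTB, a measure of RNA integrity, was 2.00 with E. coli 83972, 1.83 with DRB and 1.98 in control. That of GAPDH was 0.16 with E. coli 83972, 0.09 with DRB and 0.08 in control.

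Promoter sequences are shown for 4 of the 6 Mediator genes with the motif marked in capitals, 3 of them 2-fold lower with DRB. Each runs from 250 bases before the gene's start to 50 bases after it, so its last bases lie in the transcribed 5' end, and each is given 5' to 3' on the gene's strand from the RefSeq promoter table of GRCh38.p14. MED17, the central subunit of the head, lies at chr11:93784032-93784331 on the plus strand. MED7, a hinge subunit of the middle, lies at chr5:157142816-157143115 on the minus strand, and is the upstream of its overlapping promoter entries. MED18, of the movable jaw of the head, lies at chr1:28328790-28329089 on the plus strand, and MED15, a tail subunit bound by activators such as SREBP, lies at chr22:20507360-20507659 on the plus strand. Capitals mark CCGGAAGT, the letters of an ETS-family motif, or its reverse complement.
MED17: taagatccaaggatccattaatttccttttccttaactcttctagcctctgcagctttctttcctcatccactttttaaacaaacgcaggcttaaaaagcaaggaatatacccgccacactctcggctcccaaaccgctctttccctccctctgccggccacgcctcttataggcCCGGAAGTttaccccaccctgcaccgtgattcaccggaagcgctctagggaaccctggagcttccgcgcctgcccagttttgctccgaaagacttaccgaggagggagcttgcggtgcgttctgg
MED7: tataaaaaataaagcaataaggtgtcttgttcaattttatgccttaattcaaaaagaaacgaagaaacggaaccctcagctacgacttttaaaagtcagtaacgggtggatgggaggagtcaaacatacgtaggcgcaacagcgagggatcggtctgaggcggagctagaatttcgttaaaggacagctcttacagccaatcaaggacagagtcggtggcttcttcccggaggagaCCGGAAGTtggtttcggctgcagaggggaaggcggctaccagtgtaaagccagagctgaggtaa
MED18: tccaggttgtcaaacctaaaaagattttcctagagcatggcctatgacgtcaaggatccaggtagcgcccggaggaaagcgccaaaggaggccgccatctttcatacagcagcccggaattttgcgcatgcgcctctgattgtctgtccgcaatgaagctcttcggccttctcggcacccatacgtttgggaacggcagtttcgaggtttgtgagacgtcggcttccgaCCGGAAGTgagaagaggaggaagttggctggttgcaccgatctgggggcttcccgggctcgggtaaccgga
MED15: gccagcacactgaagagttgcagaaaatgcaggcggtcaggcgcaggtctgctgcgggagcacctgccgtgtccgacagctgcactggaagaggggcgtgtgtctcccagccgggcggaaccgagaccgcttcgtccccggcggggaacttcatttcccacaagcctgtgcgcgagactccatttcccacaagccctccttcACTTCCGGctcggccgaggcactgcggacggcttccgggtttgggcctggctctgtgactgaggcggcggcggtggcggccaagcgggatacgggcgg

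The letters CCGGAAGT, read on both strands, were in 25.9% of the 27 promoter entries of the 22 kept Mediator genes that the table held, against 7.06% of 13988 promoters of all kept genes and 4.14% of all 35116 promoters. This motif was chosen for display after these shares were seen. It lay 75 bases before the start in MED17, at position -75, and at -14 in MED7, -21 in MED18 and -48 in MED15, where the start is 0. MED17, MED7 and MED18 are among the 6 genes with a promoter entry that were 2-fold lower with DRB. The others of these 6, CDK8, MED10 and MED23, do not hold the letters. MED15, MED11 and MED29 hold them and were not 2-fold lower. A match describes the letters in this window and not a bound site.

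The other motifs searched, also on both strands, were less far from the share of all kept genes. The TATA box letters TATAAA were in 7.41% of Mediator promoters and 6.65% of promoters of kept genes. The GC box GGGCGG was in 59.3% of Mediator promoters and 64.9% of those of kept genes. The CRE palindrome TGACGTCA was in 3.70% of Mediator promoters and 2.65% of those of kept genes, and the E-box CACGTG in 7.41% of Mediator promoters and 9.32% of those of kept genes. The NRF1-type letters GCGCATGC were in 11.1% of Mediator promoters and 4.58% of those of kept genes, and the YY1-type letters AAGATGGC in 14.8% of Mediator promoters and 4.59% of those of kept genes. Over all 35116 promoters the shares were 11.5% for TATAAA, 45.0% for GGGCGG, 1.85% for TGACGTCA, 7.26% for CACGTG, 3.05% for GCGCATGC and 2.89% for AAGATGGC. The median GC content was 57.7% for Mediator promoters, 64.7% for those of kept genes and 58.7% for all promoters.

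**Figure D1:**
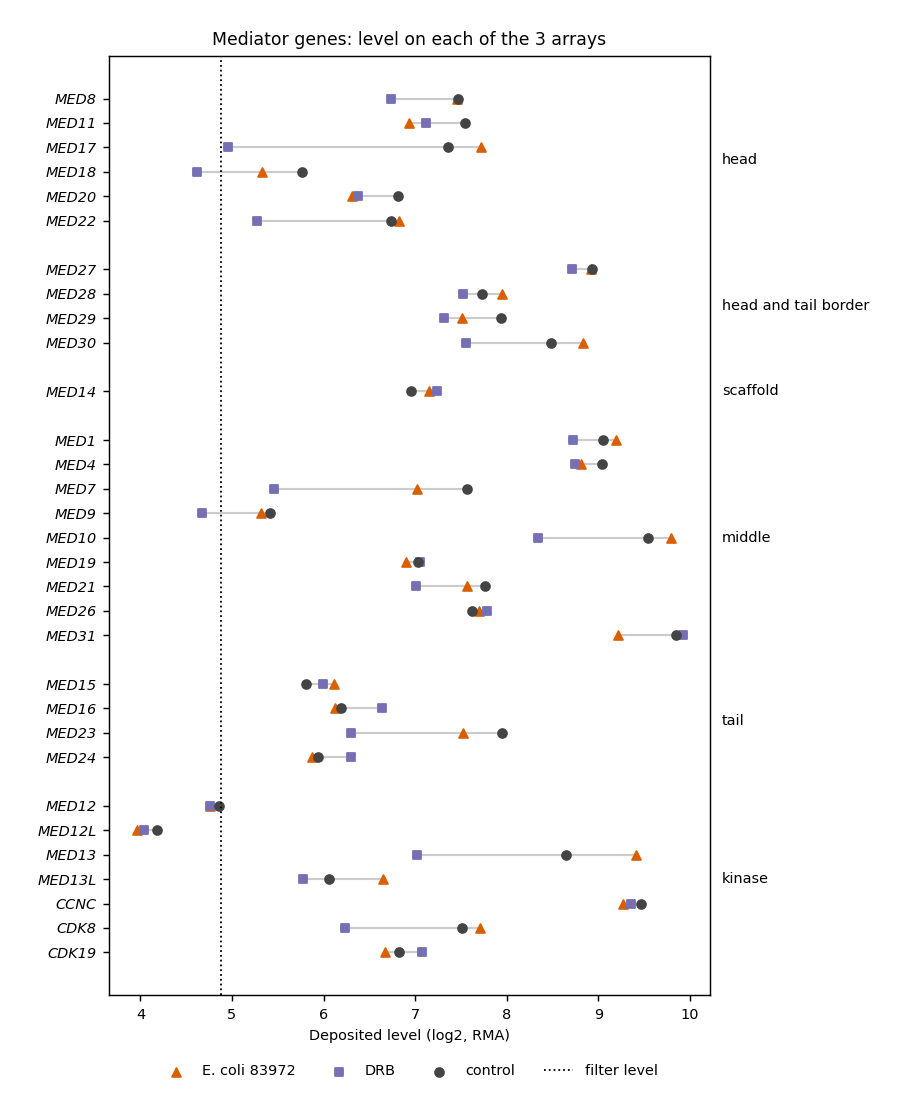
Log2 level of each of the 31 Mediator genes on the E. coli 83972, DRB and control arrays, by module, 1 point per array. MED12 and MED12L, which were not kept, are included, and the filter level is marked. MED17 sits at 7.72 with E. coli 83972, 4.96 with DRB and 7.36 in control, while MED19 lies between 6.89 and 7.05 on all 3.

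After 4 h with DRB, 8 of the 29 kept Mediator genes were at least 2-fold lower than in control and none was 2-fold higher. They were MED17, MED22 and MED18 of the head, MED7 and MED10 of the middle, MED23 of the tail, and MED13 and CDK8 of the kinase module. The share was 27.6%, against 10.2% of all 11653 kept genes that were 2-fold lower and 0.129% that were 2-fold higher. The median difference of the Mediator genes was -0.43, with a range of -2.40 to 0.44, against a median of 0.05 for all kept genes. Of the 29, 21 had a difference below 0, against 5147 of all 11653. At the level of probe sets, 11 of 74 were 2-fold lower, or 14.9%, against 8.44% of 24380.

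These counts describe 2 arrays, and the choice of probe set entered them. Of the 8 genes, MED7, MED10 and MED22 had 1 kept probe set. The other 5 had several, and MED13 alone had another probe set that was 2-fold lower. With the mean over all probe sets of a gene the count was 5 of 26, without CDK8 at -0.66, MED18 at -0.98 and MED23 at -0.65, and all genes then gave 7.08%. Centred on the poly-A spike-in controls, which were 0.84 higher on the DRB array than on the control array, every difference moved by -0.84, and 20 Mediator genes were 2-fold lower, against 32.7% of all genes. The part of the spike-in difference in the result was not tested.

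**Figure D2:**
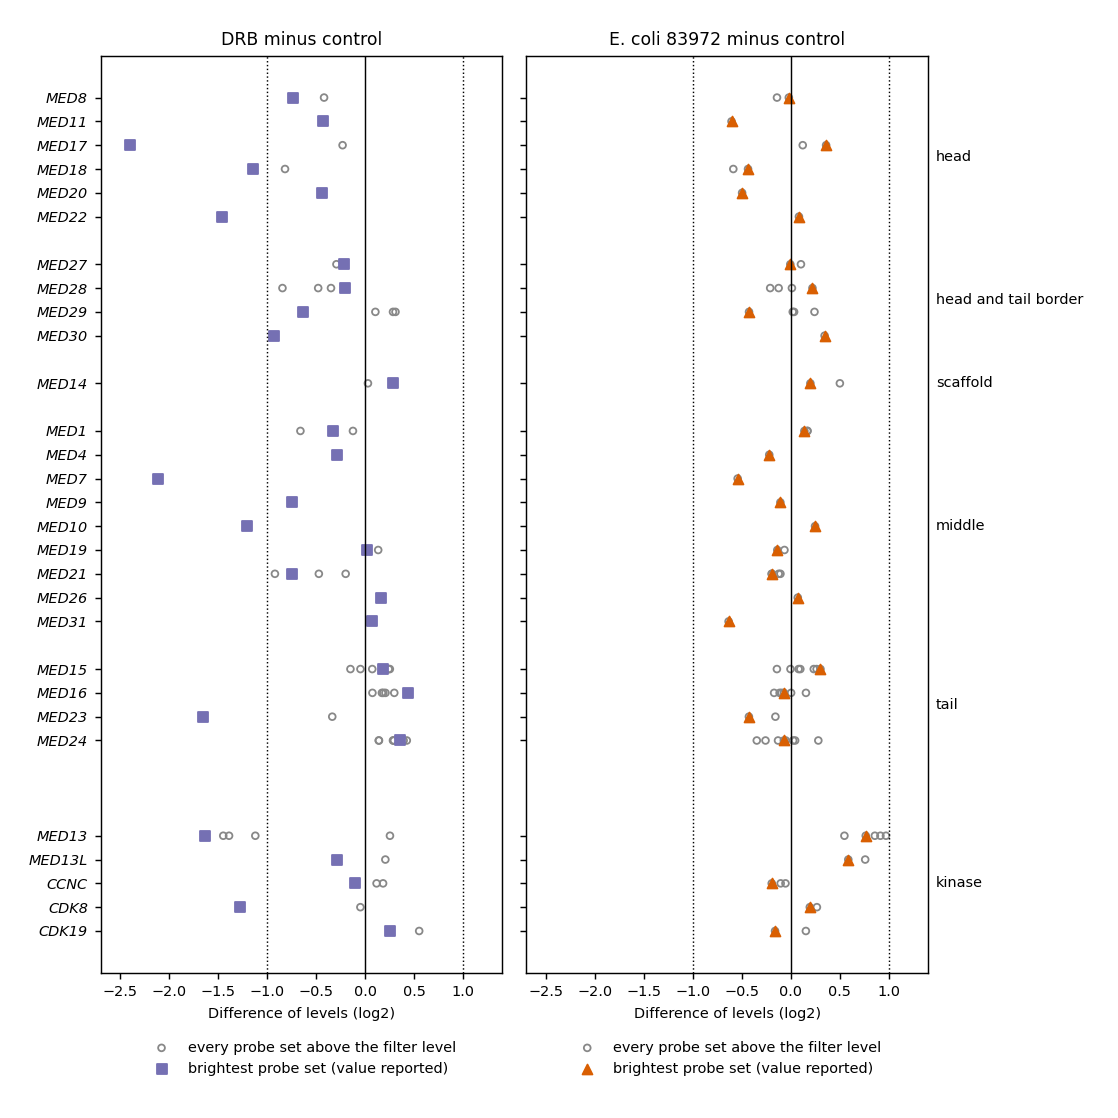
Log2 difference of each kept Mediator gene, by module, for DRB minus control and for E. coli 83972 minus control, with the 2-fold lines. With DRB, 8 genes lie beyond the lower line, from MED17 at -2.40 to MED18 at -1.15, and with E. coli 83972 no gene reaches either line.

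The head carried the lowest median of the modules, -0.94 over its 6 measured genes. All 6 were below 0, against 5147 of all 11653 kept genes. MED17, the central head subunit and the human counterpart of yeast Srb4, read 7.72 with E. coli 83972, 4.96 with DRB and 7.36 in control. The DRB array stood apart, at a level close to the filter level, where RMA compresses differences. The difference was -2.40, or 5.28-fold, rank 138 from the lowest of 11653 genes. The other MED17 probe set read 5.80 with DRB against 6.03 in control, a difference of -0.23.

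MED22, which pairs with MED11 in the head, read 6.82 with E. coli 83972, 5.27 with DRB and 6.74 in control. The E. coli 83972 difference was 0.08, and the DRB array was 2.76-fold lower, a difference of -1.47. MED18, which forms the movable jaw with MED20, read 5.33 with E. coli 83972, 4.62 with DRB and 5.77 in control. Its difference was -1.15, its level with DRB was under the filter level, and its other probe set differed by -0.82. The remaining head genes were nearer to control: MED8, which links the jaw to the rest of the head, differed by -0.74, MED20 by -0.44 and MED11 by -0.43.

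The 4 subunits at the border of head and tail were all below control with DRB, against 5147 of all 11653 kept genes. None was 2-fold lower, against 10.2% of all kept genes, and the median was -0.42. MED30, a subunit found in metazoan Mediator, read 8.83 with E. coli 83972, 7.56 with DRB and 8.48 in control. The DRB array was the lowest, by -0.93 from control, just short of 2-fold. MED29 differed by -0.63, but its other kept probe sets by 0.10 to 0.31, so its direction depended on the probe set. MED28 differed by -0.21, with -0.84 as the lowest of its 4 probe sets, and MED27 by -0.21.

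MED14, the backbone of the complex, did not follow the head. It read 7.15 with E. coli 83972, 7.24 with DRB and 6.95 in control. Both treated arrays were above control, with differences of 0.28 for DRB, which became -0.55 with poly-A spike-in centring, and 0.20 for E. coli 83972, which became -0.14 with hybridization spike-in centring. The other kept probe set read 6.10 with E. coli 83972, 5.63 with DRB and 5.60 in control, so there E. coli 83972 was the highest, at 0.50 above control, and DRB was 0.03 above control.

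The middle module had 2 of 9 genes 2-fold lower with DRB, or 22.2%, against 10.2% of all kept genes. Its median was -0.33. MED7, which pairs with MED21 in the hinge of the middle, read 7.02 with E. coli 83972, 5.45 with DRB and 7.57 in control. DRB was the lowest and control the highest, with a DRB difference of -2.11, or 4.33-fold, rank 227 from the lowest. MED10, another core middle subunit, read 9.79 with E. coli 83972, 8.34 with DRB and 9.55 in control. The DRB array was the lowest, with a difference of -1.21, or 2.31-fold, and the E. coli 83972 array was 0.25 above control.

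MED9, which pairs with MED4, read 5.31 with E. coli 83972, 4.67 with DRB and 5.42 in control, a DRB difference of -0.75 with the DRB level under the filter level. MED21, the partner of MED7, differed by -0.75, and its 4 probe sets ranged from -0.92 to -0.20. MED1, which binds nuclear receptors, differed by -0.33 and MED4 by -0.29. MED19, MED31 and MED26 were close to control, at 0.02, 0.07 and 0.16. MED19 turned to -0.22 with hybridization spike-in centring, -0.82 with poly-A spike-in centring and -0.12 with loess. MED31 turned to -0.16, -0.765 and -0.02 with the same settings. MED26 is the subunit that recruits elongation factors to Mediator, and its difference turned to -0.07 with hybridization spike-in centring and to -0.68 with poly-A spike-in centring.

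In the tail 1 of 4 genes was 2-fold lower with DRB. MED23, a target of the adenoviral E1A protein and of the ELK1 activator, read 7.52 with E. coli 83972, 6.30 with DRB and 7.95 in control. The DRB array was the lowest, at -1.65 or 3.15-fold from control, while the other kept probe set of MED23 differed by -0.34. The other tail genes were above control: MED16 by 0.44 over 6 kept probe sets that were all above 0, MED24 by 0.35 over 8 that were all above 0, and MED15 by 0.19. Of the 7 kept probe sets of MED15, 2 were below 0, the lowest at -0.15. All 3 genes were below 0 with poly-A spike-in centring, at -0.40, -0.49 and -0.65, and MED15 was -0.05 with hybridization spike-in centring. The brightest probe sets of MED15, MED16, MED18, MED24 and MED29 are of the _x_at type, which may cross-hybridize to other transcripts. Those of CCNC, CDK8, MED7, MED13, MED13L, MED23 and MED26 are of the _s_at type, which was not judged here. Among the 8 genes 2-fold lower with DRB, only the brightest probe set of MED10 had a plain suffix, _at without a further letter.

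**Figure D3:**
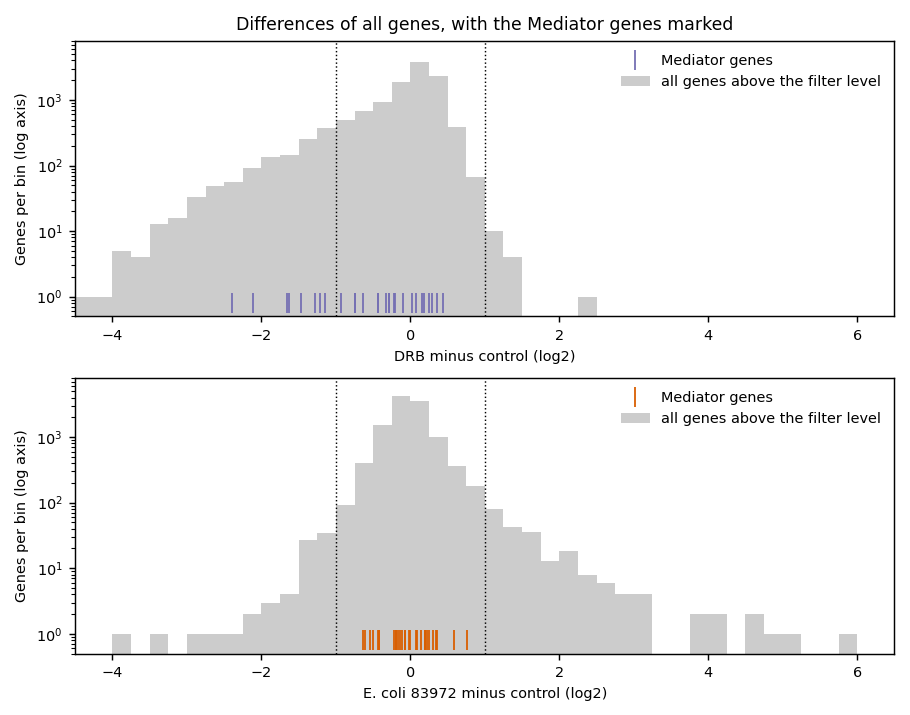
Distribution of log2 differences over all 11653 kept genes, with the 29 Mediator genes marked, for DRB minus control and E. coli 83972 minus control. The Mediator median is -0.43 with DRB, against 0.05 for all genes, and -0.07 with E. coli 83972, against -0.03.

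The kinase module held the paralog pair CDK8 and CDK19, which gave different values with DRB. CDK8 read 7.70 with E. coli 83972, 6.23 with DRB and 7.51 in control, a DRB difference of -1.28, or 2.43-fold. Its other probe set, at levels near the filter level, differed by -0.05. CDK19 read 6.66 with E. coli 83972, 7.08 with DRB and 6.83 in control, a difference of 0.25 that became -0.59 with poly-A spike-in centring. The other kept CDK19 probe set differed by 0.55 with DRB, also above control. No test of the difference between the paralogs was possible with 1 array per group.

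MED13, which tethers the kinase module to the core, read 9.41 with E. coli 83972, 7.02 with DRB and 8.65 in control. The arrays lay far apart, with E. coli 83972 the highest and DRB the lowest. The DRB difference was -1.63, or 3.10-fold, and 4 of its 5 probe sets were 2-fold lower, the fifth at 0.25. Its paralog MED13L read 6.65 with E. coli 83972, 5.78 with DRB and 6.06 in control, a DRB difference of -0.28, and its other probe set differed by 0.21. Cyclin C, encoded by CCNC and the activating partner of both kinases, read 9.27 with E. coli 83972, 9.36 with DRB and 9.46 in control. Its differences were small, at -0.10 with DRB and -0.19 with E. coli 83972. The other kept CCNC probe sets were above control with DRB, by 0.18 and 0.12. The DRB difference became -0.94 with poly-A spike-in centring, and that of E. coli 83972 became -0.53 with hybridization spike-in centring. MED12, which activates the kinase, read 4.76 with E. coli 83972, 4.76 with DRB and 4.86 in control, all under the filter level. MED12L, its paralog, read 3.96 with E. coli 83972, 4.03 with DRB and 4.18 in control, also under it.

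**Figure D4:**
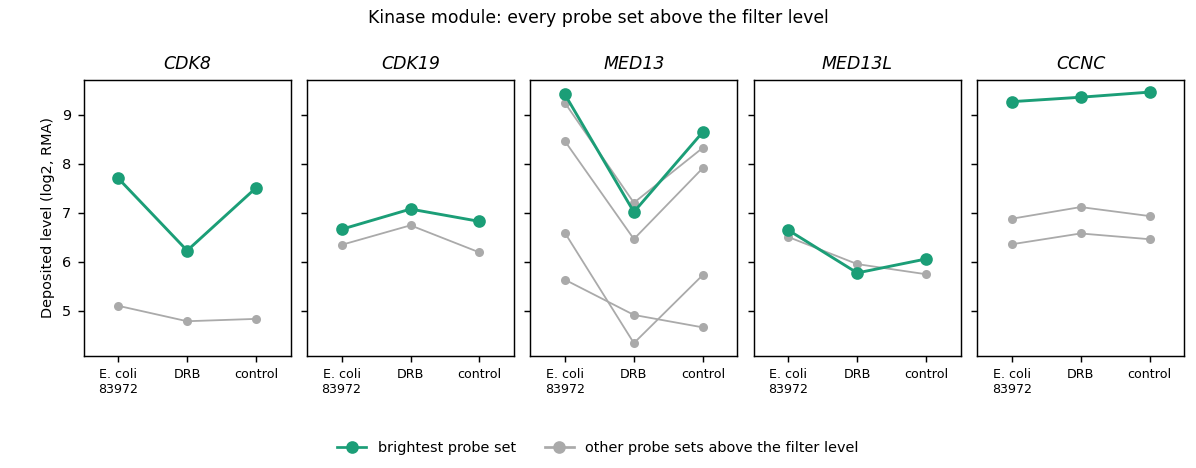
Log2 levels of the kinase module genes on the E. coli 83972, DRB and control arrays, with 1 line for each probe set above the filter level. Of the MED13 probe sets, 4 of 5 are 2-fold lower with DRB than in control and all 5 are higher with E. coli 83972 than in control.

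After 4 h with E. coli 83972, none of the 29 genes was 2-fold lower or higher than in control, against 0.652% of all kept genes that were 2-fold lower and 1.91% that were 2-fold higher. The median difference was -0.07, with a range of -0.64 to 0.77, against -0.03 for all genes. At 1.5-fold, 2 genes were lower and 2 higher, against 3.06% and 5.19% of all genes in those directions. With hybridization spike-in centring every difference moved by -0.34, and the shares of all genes at 2-fold became 2.12% lower and 1.11% higher.

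The 2 higher genes were the paralogs MED13 and MED13L of the kinase module. MED13 was 0.77 above control, or 1.70-fold, rank 378 from the highest, and its 5 probe sets were all above 0, from 0.55 to 0.97 (mean 0.81, SD 0.17 over probe sets). MED13L was 0.59 above control, and its other probe set 0.76. With hybridization spike-in centring both were under 1.5-fold, with MED13 at 0.43 and MED13L at 0.25, and MED13 was also under it with probe sets of a plain suffix only, at 0.55.

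The 2 lower genes were MED31 and MED11. MED31, a small and conserved middle subunit, read 9.21 with E. coli 83972, 9.92 with DRB and 9.84 in control. The E. coli 83972 array was the lowest, by -0.64 from control, and the other arrays were close together. The difference was under 1.5-fold with the mean over all probe sets, at -0.42, with the only plain-suffix probe set, itself under the filter level, at -0.20, and with loess, at -0.57. MED11, the head partner of MED22, read 6.94 with E. coli 83972, 7.11 with DRB and 7.54 in control. Here both treated arrays were below control, with an E. coli 83972 difference of -0.61 that was just under 1.5-fold with loess, at -0.56, and with poly-A spike-in centring, at -0.58. The other kept genes lay between -0.54, for MED7, and 0.36, for MED17. The median by module was -0.23 for the head, 0.11 for the border subunits, -0.14 for the middle, -0.07 for the tail and 0.19 for the kinase module.

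The arrays of E. coli 83972 and DRB were also compared directly. This difference is fixed by the 2 differences above, which share the control array. With E. coli 83972, 8 Mediator genes were at least 2-fold higher than with DRB and none was 2-fold lower, against 12.3% and 0.386% of all genes. The differences were 2.76 for MED17, 2.40 for MED13, 1.57 for MED7, 1.55 for MED22, 1.47 for CDK8, 1.46 for MED10, 1.27 for MED30 and 1.23 for MED23. MED30 joined the list and MED18 did not reach it. With the mean over all probe sets CDK8, at 0.89, and MED23, at 0.46, were under 2-fold. This left 6 of 26 genes, against 9.27% of all genes. MED17 was 0.35 with probe sets of a plain suffix only. MED31 was the lowest, at -0.71.

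Genes of the machinery that Mediator works with were set beside it with DRB. Of all kept genes, 10.2% were 2-fold lower with DRB and 0.129% were 2-fold higher. None of the 12 RNA polymerase II subunits was 2-fold lower, with a median of 0.11, and POLR2D, at -0.92, had the largest difference. Of 15 general initiation factors 3 were lower, with a median of -0.20, led by GTF2E1 of TFIIE at -2.36 and TBP, the TATA-binding protein, at -1.32. Of 14 TAFs, the other subunits of TFIID, 3 were lower, with a median of -0.07, led by TAF4 at -2.39 and TAF5 at -1.79, with TAF5 under the filter level with DRB, at 4.56. Of 14 subunits of Integrator, which cleaves nascent RNA, 1 was lower, or 7.14%, INTS12 at -1.30, and the median was -0.14.

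The elongation factors that MED26 recruits had the lowest median, -0.74, and 3 of 10 genes were 2-fold lower, among them EAF1 at -1.98 and CCNT2, a cyclin of P-TEFb, at -1.86. Both were under the filter level with DRB, at 4.54 for EAF1 and 4.20 for CCNT2, where sizes are uncertain. Of 7 cohesin and loader genes, whose ring joins enhancers to promoters with Mediator, 1 was lower, or 14.3%, with a median of -0.34. That gene was MAU2, the partner of the loader NIPBL, at -2.29, and NIPBL differed by -0.50. No gene of these lists was 2-fold higher with DRB, against 0.129% of all kept genes. With E. coli 83972 none was 2-fold in either direction, against 0.652% of all kept genes lower and 1.91% higher. The largest E. coli 83972 differences were 0.84 for AFF4, the scaffold of the super elongation complex, and 0.70 for EAF1.

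**Figure D5:**
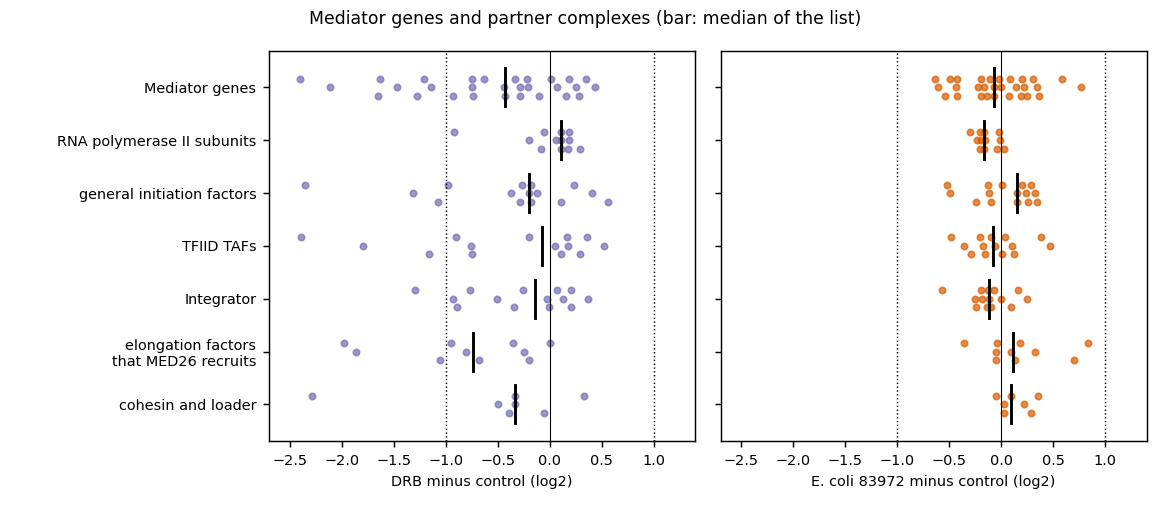
Log2 difference of every kept gene in the Mediator list and in the lists of its partners, for DRB minus control and E. coli 83972 minus control, with the median of each list. With DRB the medians run from -0.74 for the elongation factors to 0.11 for the RNA polymerase II subunits, and that of the Mediator genes is -0.43.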

How the data were processed

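Messenger RNA was measured on 3 Affymetrix 3' arrays, 1 per group. The authors deposited log2 values for 49386 probe sets, made with RMA and Partek per the submitters' processing notes. Tool versions were not given in the sources used here. Of these probe sets 45259 had 1 gene symbol, and 45178 were given a current symbol through a RefSeq table of GRCh38.p14. A gene took its probe set with the highest mean, and genes whose 3 values all lay under the median of the whole table, 4.88, were left out. The genes described in full were, by rule, the 10 with the largest DRB differences, the 4 with the largest E. coli 83972 differences, the kinase module and MED14. The members and lists were chosen with earlier results of these data known. Proteins were not compared here. Alternatives were probe-set rules, filters, fold thresholds, spike-in centring and loess. The calculation was tested on simulated data with less noise than the technical spread and the same change in every probe set of a gene. That test checks the arithmetic and gives no error rate for these arrays. Python 3.11.15, numpy 2.4.6, pandas 2.3.3, statsmodels 0.14.6 and matplotlib 3.10.9 were used.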

Additional observations from a re-analysis of the deposited data

How the results depend on the processing

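Each value compares single arrays. No paired analysis was possible because each group has 1 array. For DRB against control the count of 8 lower Mediator genes of 29 became 5 of 26 with the mean over all probe sets (7.08% of all genes), 2 of 13 with probe sets of a plain suffix only (11.6% of all genes), 20 with poly-A spike-in centring (32.7%), 13 at 1.5-fold (18.1%) and 4 at 3-fold (4.32%). The share under the suffix rule was near that of all genes. The median became -1.27 with poly-A spike-in centring. All genes moved alike there, by -0.84. MED17 differed by -0.23 with probe sets of a plain suffix only. For E. coli 83972 against control the median became 0.14 with a plain suffix only, where its sign turned, and -0.41 with hybridization spike-in centring. At 1.5-fold 2 genes were lower and 2 higher, against 3.06% and 5.19% of all genes. For E. coli 83972 against DRB the 8 higher genes became 3 of 13 with a plain suffix only (14.4% of all genes). They became 17 with poly-A spike-in centring (33.7%) and 2 at 3-fold (5.85%, near the share of the 29). The median became 1.29 with poly-A spike-in centring. At 1.5-fold 1 of the 29 genes was lower, against 5.72% of all genes. The cause was not tested, beyond fewer genes under the suffix rule. Loess moved all 29 differences in each comparison by less than the technical spread. Dim probe sets limit the size of the differences of MED17, MED18 and MED9.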

Other observations

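3 Mediator genes with a promoter entry had a gene on the other strand starting within 1000 bases of their own start. BYSL, a ribosome assembly factor beside MED20, read 7.34 with E. coli 83972, 5.57 with DRB and 6.90 in control. Its DRB difference was -1.33, against -0.44 for MED20. TMX2, beside MED19, differed by 0.24 with DRB, against 0.02 for MED19. PAF1, a subunit of an elongation complex beside MED29, differed by -0.15 with DRB, against -0.63 for MED29.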
